A study of Drosophila melanogaster with 9 samples.

Results

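Polycomb group proteins keep developmental genes silent. Their complex PRC2 methylates histone H3 at lysine 27, and the trimethylated form, H3K27me3, spreads over broad domains that PRC1 can bind. RNA polymerase II (Pol II) is the enzyme that transcribes messenger RNA, and at many Drosophila promoters it starts and then pauses a short way into the gene. Trimethylation of H3 at lysine 4 (H3K4me3) marks promoters of active genes, and trimethylation at lysine 36 (H3K36me3) marks the bodies of genes that are being transcribed. Pol II that sits inside H3K27me3 chromatin therefore combines the transcribing enzyme with a mark of silencing, which is why the places where both were measured are described here.

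Pol II and H3K27me3 were read from chromatin immunoprecipitation and sequencing (ChIP-seq) of Drosophila S2 cells, a line grown from late embryos. The study chose these cells because an earlier study had used them. The chromosome arms 2L, 2R, 3L, 3R, 4 and X were divided into 240738 tiles of 500 bp, and its density was given in RPM per kb, where RPM is the number of reads in each 1000000 kept. A tile was counted for Pol II, H3K27me3, H3K4me3 or H3K36me3 when its density was 14 or more. The tiles described here are the 691 of 240738, or 0.287%, that reached 14 in both Pol II and H3K27me3. They were compared with 47170 tiles past 14 in H3K27me3 alone, 27903 in Pol II alone and 164974 in neither.

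The study held 1 library each of H3K4me3, H3K27me3, H3K36me3 and Pol II from S2 cells and from *bam* testes, and 1 library of polyadenylated RNA from S2 cells. The parental stocks of the *bam* testes were bam1/TM3 and bam114-97 /TM6B, and the study names the genotype bam1/bam114-97 for testes it stained. Without the differentiation factor Bag of marbles such testes accumulate undifferentiated germ cells. The S2 cells were growing exponentially, and the 4H8 Pol II antibody recognises both initiating and elongating enzyme. The *bam* chromatin was crosslinked and sonicated from whole dissected testes, so germ cells and somatic cells of the testis were measured together. No target had a second library in either sample, so no difference could be set against replicate error. Intervals given for shares (Wilson) and densities (exact Poisson) are 95% intervals that cover counting error only, and PCR copies make even these too narrow.

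After at most 3 identical reads were kept, the S2 ChIP-seq libraries held between 1250028 (H3K4me3) and 3013863 (H3K36me3) reads, with 1924876 for Pol II and 2779641 for H3K27me3. The *bam* libraries held between 1342183 and 3729366 reads, and the S2 RNA library held 7289715. A density of 14 corresponded to 14 Pol II reads, 20 H3K27me3 reads, 22 H3K36me3 reads and 9 H3K4me3 reads in a tile, so a tile at the Pol II minimum had an interval of 7.95 to 24.4. RNA was counted over the tile and 500 bp on either side, and 1 RPM per kb there corresponded to 11 reads. The S2 cell identity was not checked against marker genes, because gene positions on the dm3 build were not used here.

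Pol II was sparser in tiles with H3K27me3 than in the others. Of the 47861 tiles past 14 in H3K27me3, 691 or 1.44% also passed 14 in Pol II (1.34 to 1.55%), against 11.9% of all tiles. Among the 192877 tiles under 14 in H3K27me3, 14.5% passed for Pol II (14.3 to 14.6%). Seen from the other side, 2.42% of the Pol II tiles had H3K27me3 (2.25 to 2.60%), while 22.2% of the tiles under 14 in Pol II did. The pooled Pol II density was 4.07 in H3K27me3 tiles (4.05 to 4.09) and 9.07 in the others (9.06 to 9.09), and the medians were 3.12 and 4.16. Both libraries therefore covered mostly separate tiles.

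The fall in pooled Pol II density was almost complete below the H3K27me3 threshold. Tiles with H3K27me3 above 0 and under 2 had a Pol II density of 16.3, and 31.2% of them passed 14. The density was 11.2 at H3K27me3 of 2 to 4 and 5.41 at 4 to 7. It was 3.93 at 7 to 14 and 3.86 at 14 to 21, with 1.95% and 1.25% of tiles past 14. The densities at 7 to 14 and 14 to 21 lay close together, so the threshold of 14 itself marked no step in pooled density. The share of tiles past 14 was still lower above it (1.13 to 1.38%) than below it (1.84 to 2.06%). Tiles with an H3K27me3 density of 0 had a Pol II density of 11.4, but 60.1% of them held a read in every *bam* library, against 87.7% of those at 0 to 2, so the bin at 0 also holds sequence to which short reads were seldom placed.

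Pol II was higher again in the tiles with the highest H3K27me3 densities. Pol II stood at 4.14 in tiles of H3K27me3 21 to 28, at 4.44 in those of 28 to 42 and at 7.08 (6.91 to 7.25) in the 990 tiles of 42 or more. Of these 990 tiles, 76 or 7.68% passed 14 in Pol II (6.18 to 9.50%). H3K36me3 was past 14 in 38 of these 76 tiles, and without the 1 Mb nearest the centromere on each arm the share was 5.85%. Without tiles past 14 in H3K4me3 or H3K36me3 it was 3.98%, on a density of 5.74. Many of the 76 tiles lay close together, as at chr3R:25511001-25559000 and chrX:21765501-21804500. Neighbouring tiles are not separate observations, so the intervals do not measure the spread between places. What part of the rise came from few places, or from sequence that is raised in several libraries, was not tested.

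**Figure D1:**
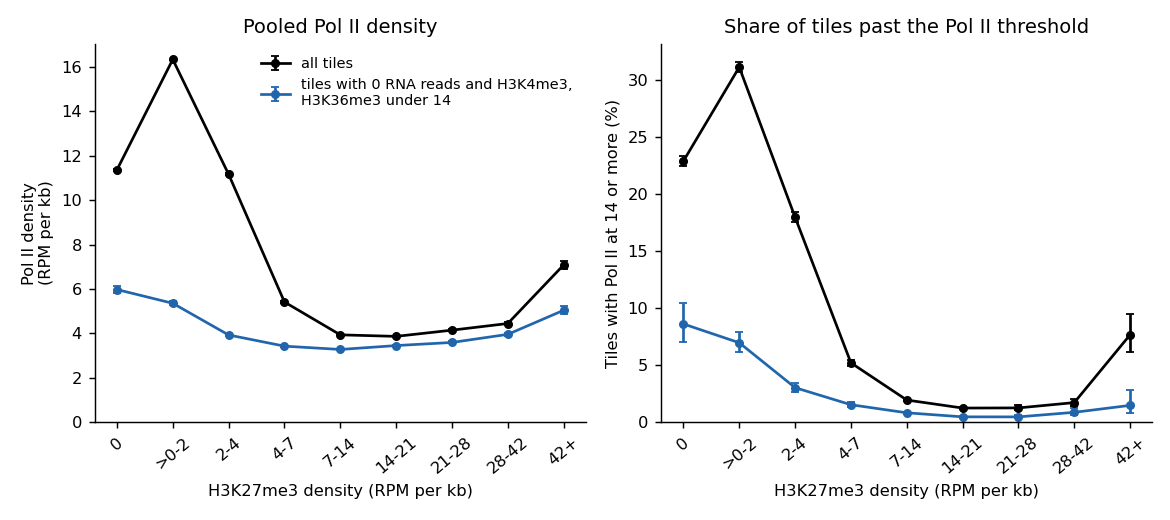
Pol II in S2 tiles grouped by H3K27me3 density on the horizontal axis, as pooled density (left, RPM per kb, exact Poisson intervals) and as percent of tiles at 14 or more (right, Wilson intervals), for all tiles (black) and for tiles with 0 RNA reads and H3K4me3 and H3K36me3 under 14 (blue). Pol II falls from 16.3 at H3K27me3 of 0 to 2 to 3.86 at 14 to 21 in all tiles and rises to 7.08 at 42 or more.

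In tiles with no other sign of activity, Pol II differed less over the range of H3K27me3. Pooled over all such tiles past 14, it was still lower than where H3K27me3 was lowest. Tiles with 0 RNA reads over the tile and its neighbours, H3K4me3 and H3K36me3 under 14 and at least 1 read in each *bam* library numbered 30109 with H3K27me3 and 61584 under 14. Their Pol II densities were 3.58 (3.56 to 3.60) and 3.54 (3.53 to 3.56), with the same median of 3.12. Of the 61584, however, 35464 lay at H3K27me3 of 7 to 14, and the 11801 under 4 had a Pol II density of 4.48 (4.44 to 4.52). By range, the Pol II density of silent tiles was lowest at H3K27me3 of 7 to 14, at 3.28. It was 3.45 at 14 to 21, 3.96 at 28 to 42 and 5.04 in the 608 tiles of 42 or more. The share of silent tiles past 14 in Pol II was 8.63% at an H3K27me3 density of 0 and 6.98% at 0 to 2. It was 0.473% at 14 to 21 and 1.48% at 42 or more. There was no input library to set a zero for these densities.

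Over broad domains the Pol II signal was low and even. Adjoining H3K27me3 tiles, with gaps of at most 1 tile, formed 15111 runs, of which 1067 were 5 kb or longer and covered 9.93 Mb. These broad domains had a median length of 6.5 kb and a longest of 73.5 kb. The pooled Pol II density inside them was 4.05 (4.03 to 4.08), against 13.2 (13.2 to 13.2) more than 5 kb from any domain, a ratio of 0.307. Of the broad domains, 923 held no tile with both, 100 held 1, and the largest number in a single domain was 12. In all, 144 broad domains, or 13.5%, held at least 1 such tile.

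Within 5 kb of the domain edge, most of the fall in Pol II lay within about 1 kb of the edge, and Pol II did not fall further inside. Its density was 7.53 at 4.75 kb outside the edge, already well under the 13.2 found more than 5 kb from any domain. It was 6.72 at 0.75 kb outside and 5.17 in the last tile outside. In the first tile inside it was 4.45 (4.35 to 4.54), in the second 3.89 and at 4.75 kb inside 4.15 (3.97 to 4.33). The share of tiles with RNA followed a longer slope, from 25.5% at 4.75 kb outside to 10.2% in the last tile outside, 7.08% in the first inside and 4.81% at 4.75 kb inside. Tiles with both were found at the edge and in the interior alike: 66 lay in the outermost 2 tiles and 204 deeper, and the share of all tiles past 14 in Pol II was 1.71% (1.36 to 2.15%) and 1.53% (1.35 to 1.73%). The 3093 gap tiles inside broad domains, which were under 14 in H3K27me3, passed 14 in Pol II in 41 cases or 1.33%, of which 3 had RNA and 0 had H3K4me3.

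**Figure D2:**
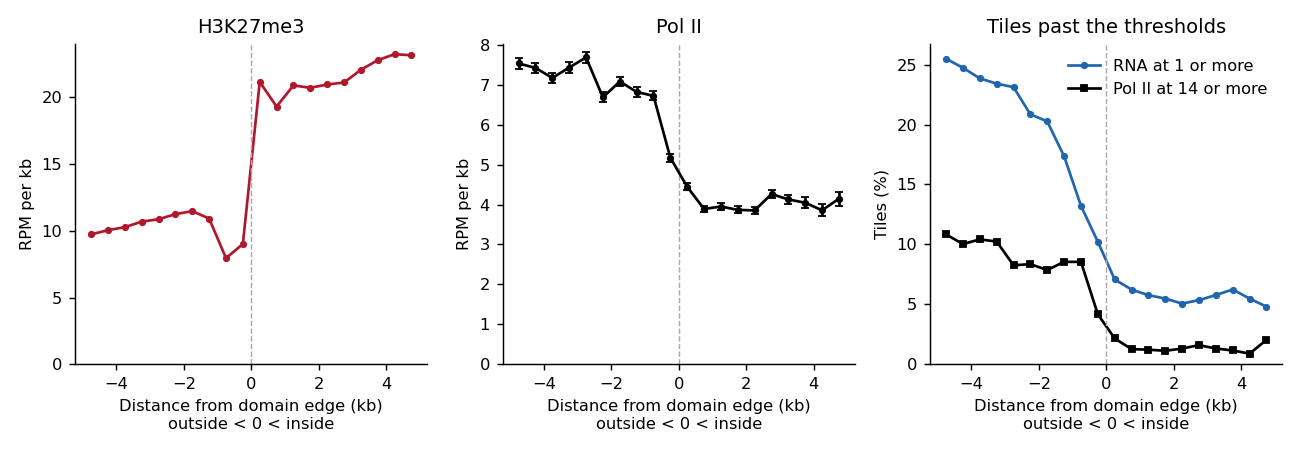
Tiles within 5 kb of the edges of 1067 broad H3K27me3 domains, outside to the left of 0 and inside to the right: pooled H3K27me3 density, pooled Pol II density with exact Poisson intervals, and percent of tiles with RNA at 1 or more and with Pol II at 14 or more. Pol II drops from 6.72 to 3.89 between 0.75 kb outside and 0.75 kb inside and then stays near 4.

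Long domains held Pol II tiles more often than short ones. Among runs of 5 to 9.5 kb, 6.92% held a tile with both, among those of 10 to 19.5 kb 22.6%, and among the 68 of 20 kb or more 66.2%, which in part follows from their having more tiles. Counted per H3K27me3 tile, the shares were 1.10% (0.901 to 1.35%), 2.09% (1.70 to 2.56%) and 2.16% (1.76 to 2.66%). Among isolated H3K27me3 tiles it was 1.81% (1.52 to 2.16%). RNA accompanied 53.3% (44.5 to 61.9%) of the tiles with both that were isolated H3K27me3 tiles, 44.2% of those in runs of 1 to 2 kb and 57.2% (49.3 to 64.8%) of those in runs of 2.5 to 4.5 kb. In broad domains it accompanied 31.2%, 31.5% and, at 20 kb or more, 29.5% (26 of 88 tiles). Over all tiles of these runs, with Pol II or not, RNA was present at 6.25% of the isolated tiles. It was present at 5.28% in runs of 5 to 9.5 kb, 6.57% in those of 10 to 19.5 kb and 2.36% in those of 20 kb or more. Only at 20 kb or more was the share over all tiles clearly lower than in isolated tiles.

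The 691 tiles formed 572 separate runs, 499 of them a single tile, 50 of 2 tiles and 23 of 3 or more, the longest being 3 kb. Pol II in them had a median density of 18.7, with quartiles of 15.6 and 24.9 and a highest value of 545, while in tiles with Pol II alone the median was 22.9. The H3K27me3 median was 20.9, against 19.4 in tiles with H3K27me3 alone. Many of these tiles stood near the Pol II minimum, with 452 of 691 at a Pol II density under 21. Of the 691, 124 held exactly 14 Pol II reads and 55 exactly 20 H3K27me3 reads. Just outside the minimum were 167 H3K27me3 tiles with 13 Pol II reads (13.5 density) and 70 Pol II tiles with 19 H3K27me3 reads (13.7 density). RNA was present at 31.5% of the former 124 tiles and at 37.7% of these 167, and at 49.1% and 45.7% of the tiles on either side of the H3K27me3 minimum. Tiles on either side of a minimum thus differed little in RNA, and with the minimum at a Poisson p under 0.001 for each library's own depth 223 tiles had both.

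Copies of reads were as frequent in these tiles as at other Pol II tiles, and reads were somewhat more often on a single strand. Repeat copies were 15.3% of their 18181 Pol II reads and 15.0% of the reads in tiles with Pol II alone. At least 20% of the Pol II reads lay on each strand in 599 of 691 tiles (86.7%), against 92.9% of the Pol II tiles without H3K27me3.

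RNA stood beside the tiles with both more often than beside H3K27me3 without Pol II and less often than beside Pol II without H3K27me3. RNA of at least 1 RPM per kb was found at 300 of 691 tiles, or 43.4% (39.8 to 47.1%), against 28.8% of all tiles. It was found at 5.29% of the tiles with H3K27me3 alone (5.09 to 5.50%), at 82.6% of those with Pol II alone (82.2 to 83.1%) and at 26.4% of those with neither. The median RNA density was 0.549 in tiles with both and 12.2 in tiles with Pol II alone. At 196 of the 691 tiles, or 28.4%, no RNA read was found at all. The share was 4.38% in tiles with Pol II alone, but 72.0% with H3K27me3 alone and 51.2% with neither. Tiles with both thus lacked RNA reads less often than most tiles of the arms. The library holds polyadenylated RNA, so short or unpolyadenylated transcripts were not measured.

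The gap in RNA between both sets of Pol II tiles was also present at matched Pol II. At Pol II densities of 14 to 21, where both sets had a median Pol II of 16.6, RNA was present at 38.7% of 452 tiles with both (34.3 to 43.3%) and at 77.0% of 12419 tiles with Pol II alone. At 21 to 28 the shares were 51.0% and 83.2%, and at 28 to 42 they were 49.3% and 86.6%. At 42 or more they were 56.9% of 72 tiles (45.4 to 67.7%) and 90.7%. The intervals did not overlap in any of the 4 ranges. Adjoining tiles share RNA reads and are not separate observations, so these intervals are too narrow and their separation is no test. Over the range of H3K27me3, the share with RNA was 46.8% at 14 to 21 and 46.3% at 21 to 28. It was 32.7% (24.6 to 42.1%) at 28 to 42 and 36.8% (26.9 to 48.1%) at 42 or more.

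H3K4me3 was rarer still. It passed 14 in 79 of 691 tiles with both, or 11.4% (9.27 to 14.0%), where 7.46% of all tiles passed, in 0.123% of the tiles with H3K27me3 alone and in 44.7% of those with Pol II alone. Of these 79 tiles, 45 were past 14 in all 4 S2 ChIP-seq libraries. Without those 45 the share in tiles with both was 5.26%. This drop follows from taking out tiles with H3K4me3, so it cannot be set against the share of all tiles. At Pol II of 14 to 21 the shares were 6.19% with both and 28.4% with Pol II alone. At 42 or more they were 45.8% (34.8 to 57.3%) and 71.5%. The median H3K4me3 density was 3.20 in tiles with both and 9.60 in tiles with Pol II alone, while it was 1.60 in tiles with H3K27me3 alone. H3K4me3 therefore rose with Pol II in both sets but lay lower at each level of Pol II where H3K27me3 was present.

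H3K36me3 behaved otherwise. It passed 14 in 176 of the 691 tiles, or 25.5% (22.4 to 28.9%), against 16.1% of all tiles, 1.53% of the tiles with H3K27me3 alone and 39.9% of those with Pol II alone. With rising Pol II its share went from 46.0% at 14 to 21 down to 26.6% at 42 or more in tiles with Pol II alone, but from 21.9% (18.3 to 25.9%) to 38.9% (28.5 to 50.4%) in tiles with both. The order of the sets thus differed between ranges. H3K36me3 was less frequent with H3K27me3 at Pol II of 14 to 28 and more frequent at 42 or more. In between, at 28 to 42, the interval in tiles with both (31.1 to 53.8%) included the share with Pol II alone (38.4%). The 28 tiles with both and H3K36me3 at 42 or more included many past 14 in all 4 S2 ChIP-seq libraries. They also included a 3-kb run at chr4:1287501-1290500. Whether the order at 42 or more holds without such tiles was not tested.

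**Figure D3:**
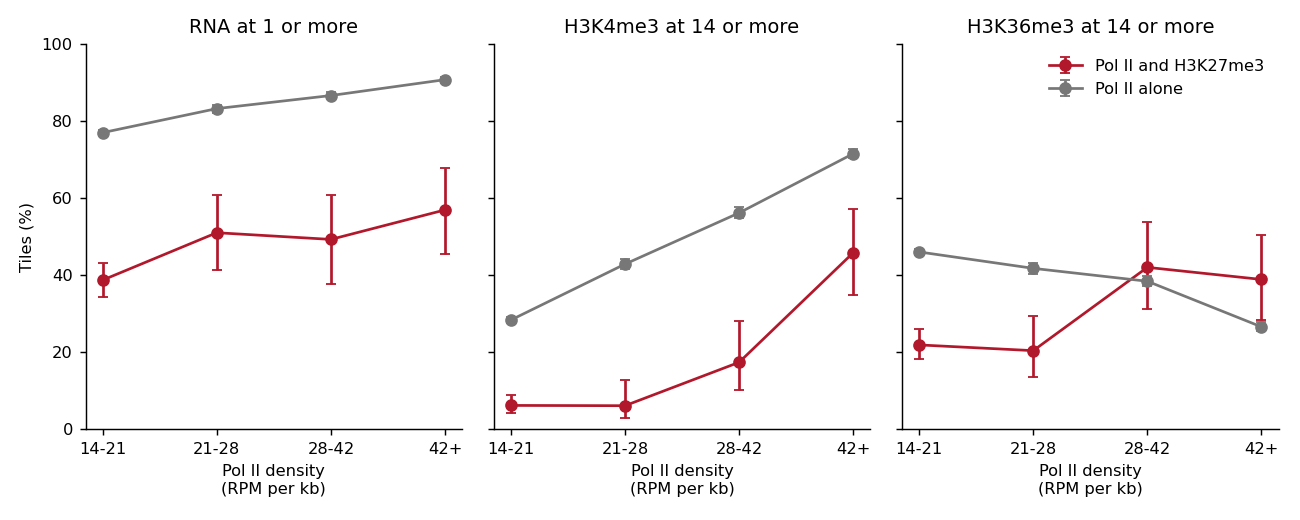
Percent of tiles with RNA at 1 or more, H3K4me3 at 14 or more and H3K36me3 at 14 or more, by range of S2 Pol II density (RPM per kb), in tiles with Pol II and H3K27me3 (red) and with Pol II alone (grey), with Wilson intervals. RNA and H3K4me3 are lower in the red series in all 4 ranges, while H3K36me3 is lower at 14 to 21 and 21 to 28 and higher at 42 or more (38.9% against 26.6%).

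By these marks the tiles fell into 4 kinds. Neither H3K4me3 nor H3K36me3 was past 14 in 481 tiles (69.6%), H3K36me3 alone was past it in 131, H3K4me3 alone in 34 (4.92%) and both in 45 (6.51%). RNA was present at 31.4% of the 481 tiles (27.4 to 35.7%), and at 70.2%, 76.5% and 68.9% of the other kinds. Pol II was lowest in the first kind, with a median of 17.7, and highest in the last, at 36.4. Within 1 Mb of the centromere-proximal end of an arm lay 2.91% of the 481 tiles, 29.8% of those with H3K36me3 alone and 37.8% of those with all 4 past 14. This zone held 12003 of all 240738 tiles. The kinds with H3K36me3 were thus held more often by sequence next to the centromeres. There 4.85% of the H3K27me3 tiles had Pol II (3.90 to 6.03%), against 1.33% elsewhere (1.23 to 1.44%). The zone takes in most of chromosome 4, and 15 of the 76 tiles with both in the zone lay on that chromosome. The values for chromosome 4 are therefore not a separate observation. On chromosome 4, which is largely heterochromatic, 22 of 348 H3K27me3 tiles had Pol II, or 6.32% (4.21 to 9.39%), and 19 of the 22 had H3K36me3. Many of the 22 adjoin each other, so the interval is too narrow. On the other arms the share of H3K27me3 tiles with Pol II lay between 1.24% (2R) and 1.73% (3L). Pol II was also more frequent over all tiles of chromosome 4, at 19.9%, against 9.24% (X) to 12.9% (3R) on the other arms. The share of all chromosome 4 tiles with H3K36me3 is not given here.

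**Figure D4:**
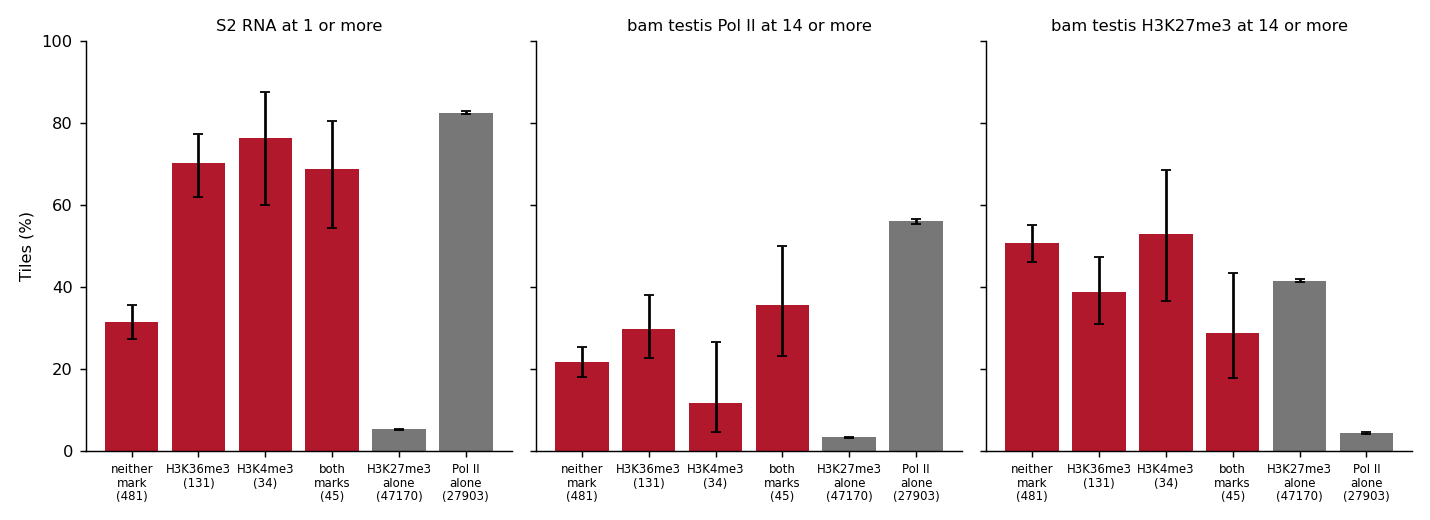
Percent of tiles with S2 RNA at 1 or more, *bam* testis Pol II at 14 or more and *bam* testis H3K27me3 at 14 or more, with Wilson intervals, for tiles with S2 Pol II and H3K27me3 split by H3K4me3 and H3K36me3 (red) and for tiles with H3K27me3 or Pol II alone (grey); the number of tiles stands under each bar. RNA is present at 31.4% of the 481 tiles with neither mark and at 68.9 to 76.5% of the other red kinds.

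The same tiles were then read in *bam* testes, whose libraries took no part in choosing them. Pol II passed 14 there in 163 of 691 tiles, or 23.6% (20.6 to 26.9%), against 13.2% of all tiles, 3.33% of the tiles with H3K27me3 alone and 56.1% of those with Pol II alone. H3K27me3 passed 14 in 47.2% (43.5 to 50.9%), against 12.5% of all tiles and 41.6% of the tiles with H3K27me3 alone (41.2 to 42.1%). Both passed together in 78 tiles, or 11.3% (9.14 to 13.9%). Within the *bam* libraries alone, 1477 of 30075 H3K27me3 tiles had Pol II, or 4.91%, where 14.4% of the other tiles did, so Pol II was also sparser in H3K27me3 tiles of the testis. How much of that 4.91% came from different cells of the tissue was not tested.

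The libraries were then read around the S2 Pol II maximum of each run. A central peak of S2 Pol II follows from choosing and centring the runs by Pol II, so it is not a result. Over all 572 runs the Pol II density was 48.2 within 100 bp of the maximum, which is the value that placed them, and 10.3 between 0.5 and 1.5 kb away. H3K4me3 was 9.30 (8.81 to 9.81) at the maximum and 5.16 beside it, and H3K36me3 was 13.8 and 8.53. At 11444 Pol II runs without H3K27me3, H3K4me3 was 51.9 (51.7 to 52.2) at the maximum and 20.5 beside it, and H3K36me3 was 15.2 and 18.3. Of the 572 runs, 225 had RNA at 1 or more, with H3K4me3 of 14.9 and H3K36me3 of 23.6 at the maximum, and 305 had RNA under 1 and both H3K4me3 and H3K36me3 under 14. In these 305 quiet runs, whose low H3K4me3, H3K36me3 and RNA are the choice and not a result, Pol II was 39.5 (38.4 to 40.6) at the maximum and 6.47 (6.32 to 6.62) at 0.5 to 1.5 kb. The interval at the maximum leaves out the effect of choosing it. Mean H3K27me3 was 25.8 at the maximum and 19.9 at 0.5 to 1.5 kb, so the mean showed no dip under the peak, although the choice of tiles required it to be high there. Its median over the runs was 19.8 at the maximum, and the mean was 21.9 without the 10 highest runs. It passed 14 there at 214 of the 305 runs, or 70.2%.

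A part of the 305 quiet runs had Pol II in *bam* testes at the same place. The mean *bam* Pol II density was 16.2 (15.3 to 17.1) within 100 bp of the S2 maximum and 6.95 (6.77 to 7.13) at 0.5 to 1.5 kb, but the median over the runs was 7.45 at the maximum. It passed 14 there at 111 of the 305 runs, or 36.4%, and without the 10 highest runs the mean was 12.7. At the Pol II runs without H3K27me3 the mean was 27.4, the median 18.6 and the share past 14 61.9%. The *bam* H3K36me3 library also peaked at the S2 maximum of the quiet runs, with a mean of 17.6 (16.8 to 18.4) against 7.10 (6.94 to 7.27) at 0.5 to 1.5 kb, over a width of about 200 bp. Its median was 8.79, it was past 14 at 121 runs (39.7%), and the mean was 15.1 without the 10 highest runs. The runs without H3K27me3 had the same median, 8.79, a like share past 14, 37.0%, and means of 15.4 at the maximum and 12.2 beside it. The 225 runs with RNA had 7.80 and 8.79.

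**Figure D5:**
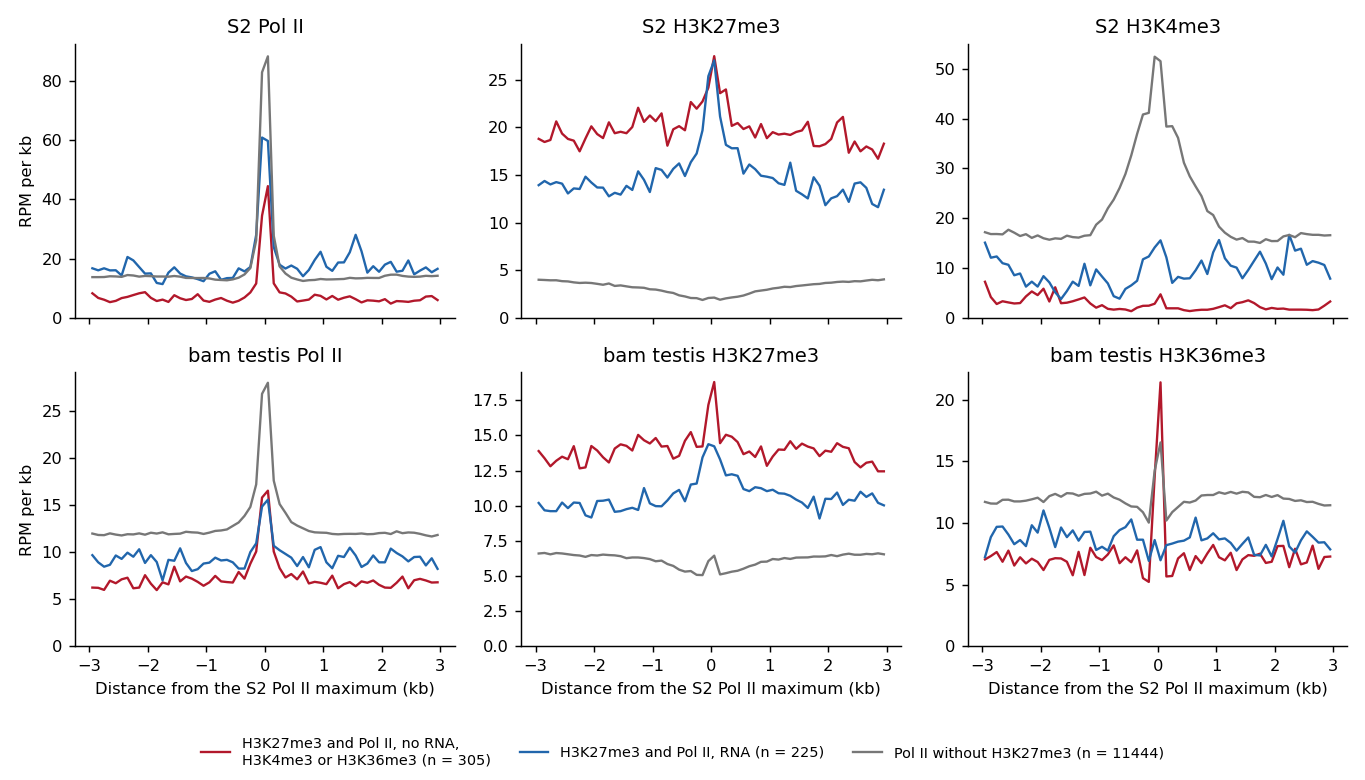
Pooled density in 100-bp steps (RPM per kb) up to 3 kb either side of the S2 Pol II maximum of each run, for 305 runs with H3K27me3 and Pol II but RNA under 1 and H3K4me3 and H3K36me3 under 14 (red), 225 runs with H3K27me3, Pol II and RNA (blue) and 11444 Pol II runs without H3K27me3 (grey), in 3 S2 and 3 *bam* testis libraries. The red line, low in H3K4me3 by choice, has a mean Pol II peak in both samples (39.5 in S2 cells and 16.2 in *bam* testes within 100 bp). The S2 Pol II peak follows from the centring. The red and grey lines both have a narrow *bam* H3K36me3 peak (17.6 and 15.4).

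The 8 runs in which the lower of the Pol II and H3K27me3 densities was largest were of different make. Coordinates are on the dm3 build, and the genes there are not named here. At chr2L:18881001-18881500 Pol II was 46.8, H3K27me3 41.0, H3K4me3 3.20, H3K36me3 0 and RNA 0, inside a domain of 34.5 kb. In *bam* testes H3K27me3 was 44.0 there and Pol II 16.4. This was the only one of the 8 with H3K36me3 under 14.

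The other 7 runs had H3K36me3 between 21.2 and 61.7 and *bam* H3K27me3 under 6. At chrX:21784501-21785500 H3K27me3 was 225, Pol II 91.4, H3K36me3 61.7 and H3K4me3 21.6, with RNA at 0. In S2 cells the 5 kb on either side had 4.10, 1.71 and 1.36 for H3K27me3, Pol II and H3K36me3, and the *bam* libraries read 2.24 to 3.52 in the run. In *bam* testes the 5 kb on either side read 0.853 to 1.34, so the run was above them there too, on 3 to 13 reads in each library, with all 4 densities under 14.

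RNA was present in 4 of these 7: chr2R:2236001-2236500 (Pol II 81.0, H3K27me3 49.6, RNA 17.3), chr2L:8428501-8430000 (45.7, 49.6 and 166), chr2R:6839001-6839500 (77 Pol II reads, H3K27me3 41.0, RNA 6.31) and chr3L:23544501-23545000 (39.5, 41.7 and 18.4). The remaining 2, beside that on X, had RNA at 0, namely chr3L:23565001-23566000 (Pol II 48.8, H3K27me3 59.4) and chr4:615501-616000 (40.5 and 74.1). Over all 572 runs, 22 stood at least 3 times above the 5 kb either side in all 4 S2 ChIP-seq libraries. Of these 22, 15 lay within 1 Mb of a centromere-proximal end, 17 had *bam* Pol II and H3K27me3 under 14, and 7 had RNA. The number of copies of these sequences in S2 cells was not tested.

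The 5 further runs with the highest RNA had RNA densities of 117 to 199 over the run and 500 bp either side, Pol II of 14.6 to 28.1 and H3K27me3 of 15.1 to 18.7. All 5 had H3K36me3 past 14, from 15.9 to 142. The highest RNA was at chr2L:1145501-1146000, where H3K27me3 was 18.7 in an isolated tile whose 5 kb either side had 5.68, and Pol II was 17.7 with 32.0 either side. H3K4me3 was past 14 at 2 of them, with 51.2 at chr3L:18716001-18716500 and 24.0 at chr2R:14163501-14164000. None of these 5 lay in a broad domain, and H3K27me3 was near its minimum in all of them. High RNA was also found at 1 narrow run with dense H3K27me3. The run at chr2L:8428501-8430000 named above had RNA of 166 with H3K27me3 of 49.6, and its tile with the highest RNA of all 691 (243) had H3K27me3 of 56.1. The H3K27me3 there spanned 1.5 kb, with 0.899 in the 5 kb either side, and H3K36me3 was 60.2.

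The opposite kind had the highest Pol II with RNA under 1 and H3K4me3 under 14, a class of 329 runs of which 157 lay in domains of 5 kb or longer. At chr2R:20702001-20702500 Pol II was 144 (121 to 171) in a tile with H3K27me3 15.1, H3K4me3 0, H3K36me3 0 and RNA 0. The 5 kb either side had Pol II 2.96 and H3K27me3 25.4, and the domain around the tile was 57 kb long. In *bam* testes Pol II was 59.6 and H3K27me3 27.4 in that tile. The H3K27me3 density here was lower in the Pol II tile than beside it, as it was at chr2R:10345501-10346000, while in the other 3 runs of this kind it was somewhat higher than beside it.

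The other 4 of this kind also had Pol II with almost no H3K4me3 or RNA, by which they were chosen. At chr2R:2389501-2390000 Pol II was 111, H3K27me3 14.4 and *bam* Pol II 46.2. At chr2L:1361501-1362000 the values were 84.2, 18.7 and 49.2, at chr2L:15333501-15334000 they were 71.7, 17.3 and 58.1, and at chr2R:10345501-10346000 they were 64.4, 20.9 and 16.4. H3K4me3 was at most 1.60 and RNA at most 0.0915 in all 4, and *bam* Pol II was past 14 in each. *bam* H3K27me3 was between 7.51 and 14.5 in them. They lay in runs of H3K27me3 of 3 to 26.5 kb.

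The 5 longest domains that held a tile with both show how little Pol II such stretches carried. The longest, chr3R:17233501-17307000, spanned 73.5 kb with an H3K27me3 density of 25.9 and a Pol II density of 2.71 (2.45 to 3.00), and 1 of its tiles had both, at a Pol II of 18.7. In chr3R:3974501-4033000 (58.5 kb) the Pol II density was 3.94 with 2 such tiles, the higher at 34.3. The next, chr2R:20685501-20742500 (57 kb), held the tile at 144 described above and had a density of 4.57. Those at chr3L:12582501-12637500 and chr3R:658001-713000 (both 55 kb) had densities of 3.42 and 3.33 and 1 tile with both, at 14.6 in each, and the latter also had a gap tile with Pol II of 31.2. No tile of these 5 domains had RNA at 1 or more, and their *bam* H3K27me3 densities lay between 20.1 and 25.0.

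The study's methods name 2 regions on 3R, by coordinates taken here to be on dm3, that were bivalent in embryos and that overlap gene promoters, and these were read in the same way. The genes are *hh*, which encodes the secreted signal Hedgehog, and *Poxm*, which encodes a paired-box transcription factor of the muscle lineage. In the 5 tiles over the *hh* region (chr3R:18965501-18968000) H3K27me3 was between 7.91 and 43.2 and Pol II between 2.08 and 10.4, so none had both. Along the 4 tiles of chr3R:4158001-4160000, of which the *Poxm* region reaches at most the first base of the last, Pol II was read 1, 1, 10 and 26 times. H3K27me3 was 33.1, 25.2, 46.8 and 14.4, so that last tile alone had both. RNA was 0 in all of these tiles and H3K4me3 at most 3.20. *bam* Pol II in the *Poxm* tiles was 7.45, 20.9, 31.3 and 28.3, and *bam* H3K4me3 was 9.95, 52.6, 38.4 and 2.84. The study chose both genes from those with H3K4me3 and H3K27me3 in *bam* testes, so the *bam* values of these marks are a description only.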

How the data were processed

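ChIP-seq and RNA-seq reads were deposited by the authors as read positions (BED, dm3 build), 1 line per aligned read and with no normalization. The authors aligned reads with ELAND and kept unique matches. The passage speaks of all reads but closes on the ChIP-seq data, and no aligner is named for RNA separately. RNA was polyadenylated and read without strand. At most 3 reads with the same 5′ end and strand were kept. ChIP-seq 5′ ends were moved 80 bp inward, and RNA was counted at its 5′ end. Reads were counted in 500-bp tiles from position 1. Densities are reads per 1000000 kept reads of the whole library (RPM) per kb, and 96.1 to 98.9% of the S2 ChIP-seq reads lay on the arms. Tiles, runs and named regions followed fixed rules: the 8, 5, 5 and 5 regions above and the *hh* and *Poxm* regions. The tiles, thresholds and region rules were chosen with earlier results of these data known; the split into 4 kinds, the quiet runs and the silent tiles were chosen after seeing values. With 1 library per target no test was made. Gene positions and sequence of the dm3 build were not used here. Counting was tested on simulated reads. Python 3.11.15 with numpy, pandas and scipy was used.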

Additional observations from a re-analysis of the deposited data

Results flagged for a closer look

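On the heterochromatic sequences that are placed outside the 6 arms, which no comparison above used, 122 tiles had Pol II and H3K27me3 both at 14 or more in S2 cells. They are 10.6% (8.98 to 12.6%) of the 1147 H3K27me3 tiles there, while 365 of all 18551 tiles there, or 1.97%, had Pol II, so Pol II was more frequent in H3K27me3 tiles, unlike on the arms. The 18551 were not limited to tiles with a read in each *bam* library. Tiles to which reads were seldom placed therefore count as lacking both, and the difference without them was not tested. H3K36me3 was past 14 in 98 of the 122. The share of all tiles on these sequences with H3K36me3 is not given here, so the 98 are not shown to be a trait of tiles with both. On XHet 30 of 40 H3K27me3 tiles had Pol II, on 3RHet 34 of 295, on 2RHet 44 of 426, on 3LHet 12 of 354, on 2LHet 2 of 31 and on YHet 0 of 1. These sequences were listed because they hold a signal outside the main measurement, with no control sample to set it against.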

How the results depend on the processing

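Both density ratios stayed under 1 in each alternative run, and 25 of 49 values stayed within the counting interval or within 1.5 times of the count. The ratio of Pol II density in H3K27me3 tiles to the other tiles (0.449) was 0.445 with no shift, 0.479 with 1 copy of each read, 0.446 with tiles 250 bp later, 0.441 with the S2 ChIP-seq libraries thinned to the shallowest, 0.408 in mappable tiles (at least 1 read in each *bam* library) and 0.444 without tiles past 14 in all 4. The ratio inside to outside broad domains (0.307) was, in the same order but for the tile start and the tiles past 14 in all 4, which kept it, 0.312, 0.333, 0.289 and 0.270. It was 0.284 and 0.355 with minimums at a Poisson p under 0.05 and 0.001 for each library's own depth, 0.339 for domains without gaps, 0.326 for those of 10 kb or longer and 0.305 without the 2 outermost tiles. The number of tiles with both fell to 223 at p under 0.001, and lay between 599 and 965 otherwise. Their share with RNA was 52.8% with 1 copy, 50.7% at p under 0.001, 51.5% with an RNA minimum of 0.5 and 48.6% with at least 20% of Pol II reads on each strand, so whether RNA stood beside a majority of these tiles depended on the setting. Their share with H3K4me3 was 14.2% with 1 copy, 8.91% thinned and 9.11% without 1 Mb at the centromeres. It was 5.26% without tiles past 14 in all 4, a setting that takes out only tiles with H3K4me3 and so lowers the share by design. The strand and centromere settings were chosen after seeing the data. No paired analysis was possible because each group has 1 library.

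Depth limits single tiles most: 14 Pol II reads or 9 H3K4me3 reads decide a call, and a tile under 14 in H3K4me3 is not shown to lack the mark. No input library was analysed, so sequence copy number and read placement cannot be told apart from enrichment in a tile that is raised in several libraries. *bam* and S2 chromatin differed in preparation, cell number and read length, so values of the 2 samples set side by side are descriptions and no difference between them was tested.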
